A study of Mus musculus with 8 samples.

Results

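The genes described here are 8 amino acid transporters of group 2 innate lymphoid cells (ILC2s), lymphocytes of the lung that release type 2 cytokines when the alarmin IL-33 reaches them. They are Slc7a5, Slc7a8, Slc7a6, Slc3a2, Slc1a5, Slc38a1, Slc38a2 and Slc6a13, a named list that was selected on the TPM and UMI values of these same comparisons, which were known when it was drawn up. All 8 were found among the 55413 genes of the bulk table and among the 15083 genes of the single-cell table. Their values in the dopamine comparisons are therefore a description of the genes, and the adjusted p-values over all genes place them among the rest without supporting the choice.

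ILC2s were sorted from the lungs of wild type C57BL/6 mice. In the bulk experiment, female mice received IL-33 plus dopamine (3 libraries) or IL-33 plus PBS, the vehicle (3 libraries), through the nose on 3 consecutive days, and 2000 sorted cells went into each Smart-seq2 library. The labels call the 3 libraries of a condition biological replicates, and every bulk animal had IL-33, so no bulk value comes from unstimulated lung. In the single-cell experiment, sorted cells of male mice were tagged with antibody hashtags, pooled and run on droplets, and the authors' cell table names the treatment of each of the 8 hashtags: IL-33 plus dopamine (hashtags 6, 7 and 8; 3924 cells), IL-33 (hashtags 3, 4 and 5; 4093 cells) and PBS (hashtags 1 and 2; 1059 cells). The labels of this pool also give IL-33 for 3 days, and 60000 cells were loaded. The labels do not say that a hashtag is 1 mouse, so a p-value over hashtags measures the spread between hashtags. The bulk groups were all of one sex and the single-cell groups of the other, so sex and assay cannot be told apart where the experiments differ.

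Amino acids reach the cytosol through carriers that either exchange one amino acid for another or pull them in with sodium. Slc3a2 encodes CD98 heavy chain, which holds light chains of the SLC7 family at the plasma membrane; Slc7a5 (LAT1) and Slc7a8 (LAT2) exchange large neutral amino acids such as leucine, and Slc7a6 (y+LAT2) exchanges cationic for neutral amino acids plus sodium. Slc1a5 (ASCT2) exchanges small neutral amino acids and glutamine, Slc38a1 (SNAT1) and Slc38a2 (SNAT2) bring in glutamine and other small neutral amino acids with sodium, and Slc6a13 (GAT2) carries GABA and taurine with sodium and chloride. Supply through such carriers feeds protein synthesis and the kinase complex mTORC1 in activated lymphocytes, and Slc38a2 is a known target of the stress-response factor ATF4 when amino acids run short.

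The promoters of 4 genes whose levels or proportions are described most closely and that the supplied RefSeq table holds are shown here, each from 250 bases before to 50 bases after the RefSeq start, on GRCm38.p6 (mm10), read 5′ to 3′ on the gene's strand. Capitals mark TGACG, the core of the cAMP response element, a site of the CREB and ATF factors.
Slc7a8: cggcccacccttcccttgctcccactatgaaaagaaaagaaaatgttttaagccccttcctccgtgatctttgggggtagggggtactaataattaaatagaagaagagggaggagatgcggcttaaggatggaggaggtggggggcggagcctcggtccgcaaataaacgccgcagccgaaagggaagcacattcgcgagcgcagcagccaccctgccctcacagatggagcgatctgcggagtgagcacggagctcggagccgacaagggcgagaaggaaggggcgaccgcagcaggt
Slc7a6: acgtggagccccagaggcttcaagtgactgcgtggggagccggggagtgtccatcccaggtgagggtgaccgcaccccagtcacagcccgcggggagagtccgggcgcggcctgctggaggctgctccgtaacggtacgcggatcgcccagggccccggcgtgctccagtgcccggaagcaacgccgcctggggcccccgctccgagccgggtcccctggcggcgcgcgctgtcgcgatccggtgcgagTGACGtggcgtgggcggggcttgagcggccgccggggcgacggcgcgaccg
Slc38a2: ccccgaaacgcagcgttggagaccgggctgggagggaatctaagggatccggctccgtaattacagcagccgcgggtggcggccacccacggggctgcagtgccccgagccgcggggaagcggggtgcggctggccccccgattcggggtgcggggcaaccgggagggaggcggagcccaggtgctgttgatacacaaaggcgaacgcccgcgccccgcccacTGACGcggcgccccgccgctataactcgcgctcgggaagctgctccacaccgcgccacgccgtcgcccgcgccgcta
Slc6a13: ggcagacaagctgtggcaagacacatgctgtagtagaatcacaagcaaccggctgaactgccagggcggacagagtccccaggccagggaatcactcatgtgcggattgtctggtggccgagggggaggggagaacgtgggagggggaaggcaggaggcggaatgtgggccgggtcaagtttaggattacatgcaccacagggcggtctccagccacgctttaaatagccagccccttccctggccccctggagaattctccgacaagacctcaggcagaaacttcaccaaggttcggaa
The windows lie at chr14:54781837-54782136 (minus strand, Slc7a8), chr8:106168604-106168903 (plus strand, Slc7a6), chr15:96699679-96699978 (minus strand, Slc38a2) and chr6:121300038-121300337 (plus strand, Slc6a13). The supplied table held a window for 5 of the 8 genes, including Slc3a2, and 8 windows in all, because Slc6a13 and Slc7a6 have further starts in it; the promoters of Slc38a1, Slc7a5 and Slc1a5 were not analysed here. The letters TGACG stood at base -27 from the start in Slc38a2 and at base -1 in Slc7a6, and were in neither strand of the Slc7a8 window nor in the printed Slc6a13 window. These letters occur on either strand in 20.8% of the 32851 mouse promoter windows, so a match is common. None of the 8 windows held TGATGNAA (an ATF4 amino acid response element, 3.97% of all windows), TGACGTCA (the full cAMP response element, which contains TGACG, 1.79%), TGANTCA (AP-1, 7.81%) or CACGTG (the E-box of MYC, 7.15%), searched on both strands. The window at the most downstream start of Slc6a13, chr6:121303389-121303688, held GGGAATTTCC at base -77, a match to the NF-kB motif (GGGA, any base, TTTCC) that 0.411% of all windows hold, and also GATAA (25.4%) and AGGTCA (16.3%).

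In the GENCODE M21 annotation of mm10 the genes lie on 6 chromosomes. Slc38a1 (chr15:96571418-96642913) and Slc38a2 (chr15:96687392-96699730) are close to each other on the minus strand. Slc7a6 (chr8:106168857-106198706, plus strand) and Slc7a5 (chr8:121881150-121907694, minus strand) share a chromosome. Slc7a8 is at chr14:54722209-54781946 (minus), Slc3a2 at chr19:8706882-8723369 (minus), Slc1a5 at chr7:16781340-16798274 (plus) and Slc6a13 at chr6:121300227-121337733 (plus). Slc7a5 is overlapped on the other strand by Gm20388 and Slc6a13 by the small RNA gene Gm24855, and the sources do not state that bulk reads were counted by strand, so reads of those partners cannot be told apart from theirs.

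The bulk libraries held 11502 to 11745 genes at 1 TPM or more with dopamine and 9822 to 11384 with PBS, where PBS library 2 stood lowest. TPM (the share of reads that falls to a gene, corrected for transcript length) sums to a fixed total, so the number of reads behind a value is unknown. The median tested gene lay 0.49 higher on the log2 scale with dopamine, so log2 fold changes are also given relative to that median. ILC2 markers summed to 2656 to 3899 TPM with dopamine and 2553 to 3529 TPM with PBS, and 4 of 11 were higher without overlap. Beside this and the marker counts below, 23.5% of all 11222 tested genes were higher and 6.57% lower without overlap. Gata3, the factor that specifies these cells, overlapped, at 272 to 473 TPM with dopamine and 306 to 456 TPM with PBS, while Il7r, the IL-7 receptor, was at 307 to 419 TPM with dopamine and 74.4 to 164 TPM with PBS, and the nuclear receptor gene Rora at 492 to 621 TPM with dopamine and 151 to 387 TPM with PBS. Markers of other cells were present in both groups: NK cell and ILC1 markers summed to 401 to 683 TPM with dopamine against 94.7 to 294 TPM with PBS (6 of 10 higher without overlap), ILC3 markers to 134 to 273 TPM against 18.9 to 110 TPM (5 of 7), and T cell markers to 1813 to 2401 TPM against 1330 to 1818 TPM (4 of 12). Of the T cell markers, Cd3e was at 44.75, 170 and 105 TPM with dopamine, against 4.33, 6.68 and 43.6 TPM with PBS. Trac was at 77.5, 149 and 121 TPM with dopamine, against 14.4, 10.5 and 39.2 TPM with PBS. Of the 12 T cell markers, 0 were lower without overlap. Lung epithelium markers summed to 27.9 to 30.2 TPM with dopamine against 10.3 to 16.4 TPM with PBS (1 of 9 higher and 1 lower without overlap, and Sftpb, Scgb1a1 and Krt8 at 0 in all 6 libraries). Immediate early and dissociation genes summed to 12098 to 18476 TPM against 3413 to 7974 TPM (14 of 19). B cell markers (122 to 1792 TPM with dopamine, 88.2 to 5010 TPM with PBS) and macrophage markers (3.12 to 530 TPM with dopamine, 30.7 to 1366 TPM with PBS) varied widely among libraries, with the macrophage markers C1qa and Fcgr1 at 0 in all 6. The part of these lists in the values below was not tested, and in bulk RNA fewer cells of a type and less RNA per cell cannot be told apart.

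In bulk ILC2s the light chain Slc7a8 and the glutamine carriers Slc38a1 and Slc38a2 lay higher in all 3 dopamine libraries than in any PBS library, and the GABA carrier Slc6a13 lay lower. Across the 11222 tested genes, 23.5% were higher without overlap and 6.57% lower without overlap, so such a separation was common among the higher genes. None of the 8 passed limma's test with Benjamini-Hochberg adjustment over all tested genes at 0.05, while Slc38a2, Slc7a8 and Slc38a1, 3 of the 8, had an unadjusted p under 0.05. In that test 4 genes passed in the higher direction (0.0356%) and 0 in the lower, while 2188 (19.5%) and 518 (4.62%) had an unadjusted p under 0.05. The members' median log2 fold change was 0.65, against 0.49 for all tested genes.

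Among the CD98 subunits, the heavy chain Slc3a2 was the most abundant transporter of the 8 by TPM. It stood at 564, 572 and 510 TPM in the 3 dopamine libraries, against 464, 356 and 511 TPM in the 3 PBS libraries, above 97.7% of tested genes by mean TPM. The groups overlapped, with dopamine library 3 level with PBS library 3, and the log2 fold change was 0.32 ± 0.19 (SE; adjusted p = 0.301, limma), or -0.17 relative to the median gene, which turned to 0.30 with quantile normalization. Slc7a8 (LAT2) stood at 49.99, 47.6 and 64.9 TPM with dopamine, against 35.6, 7.91 and 20.2 TPM with PBS. Every dopamine library was above every PBS library, and PBS library 2 was the lowest. Slc7a8 averaged 54.2 ± 9.37 TPM with dopamine and 21.2 ± 13.9 TPM with PBS (SD, n = 3 each), a log2 fold change of 1.52 ± 0.49 (adjusted p = 0.125, limma), or 1.03 relative to the median gene. That relative value was 0.66 without PBS library 2, and without PBS library 1 the adjusted p was 0.0329, in a fit where 11.4% of genes passed as higher.

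Slc7a6 (y+LAT2) stood at 31.4, 39.2 and 57.7 TPM with dopamine, against 106, 35.9 and 65.1 TPM with PBS. The ranges overlapped through the low PBS library 2, and the log2 fold change was -0.59 ± 0.42 (adjusted p = 0.388, limma), or -1.08 relative to the median gene. When the libraries were brought to one scale by median-of-ratios factors, the ranges of Slc7a6 no longer overlapped, at 26.1, 31.5 and 45.5 scaled TPM with dopamine and 90.9, 56.0 and 79.2 scaled TPM with PBS. On that scale 15.2% of tested genes were lower without overlap and 13.4% higher. Slc7a5 (LAT1), the leucine carrier usually induced in activated T cells, was low, at 4.04, 23.0 and 9.96 TPM with dopamine and 8.08, 3.27 and 3.52 TPM with PBS. A single library, dopamine 2, held most of the difference: the log2 fold change relative to the median gene was 0.48, and -0.08 without that library.

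**Figure D1:**
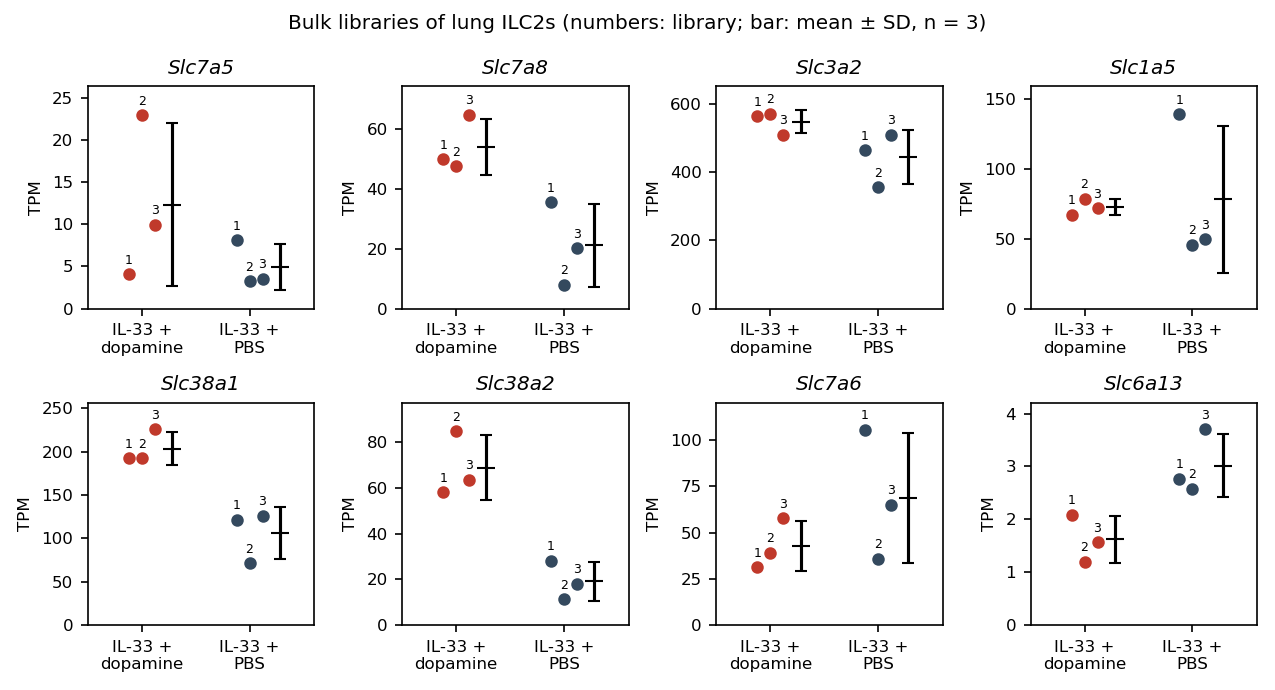
TPM of the 8 transporters in each bulk library (dots, numbered by library) for IL-33 plus dopamine and IL-33 plus PBS, with the mean ± SD of 3 libraries beside each group; each axis starts at 0 and has its own scale. Slc7a8, Slc38a1 and Slc38a2 are higher in all dopamine libraries, Slc6a13 is lower, and the other 4 genes overlap.

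The proportions of the 3 light chains need no common scale, since each is a share within a library. Slc7a8 made up 58.5%, 43.4% and 49.0% of summed light chain TPM in the dopamine libraries, against 23.8%, 16.8% and 22.8% in the PBS libraries. Slc7a6 made up 36.7%, 35.7% and 43.5% with dopamine, against 70.8%, 76.2% and 73.3% with PBS. Slc7a5 made up 4.73%, 20.9% and 7.52% with dopamine, against 5.41%, 6.95% and 3.96% with PBS, with overlap. Of these 3, Slc7a6 was thus the main transcript in every PBS library, and Slc7a8 in every dopamine library. Other carriers of the SLC7 family were not in the sum, and how many other gene sets separate in this way was not counted. The mean Slc7a8 share was 50.3 ± 7.66% with dopamine and 21.1 ± 3.78% with PBS (SD, n = 3 each), a difference of 29.2 percentage points that stayed between 25.04 and 32.6 when any library was left out. The mean Slc7a6 share was 38.6 ± 4.25% with dopamine and 73.4 ± 2.74% with PBS, a difference of -34.8 percentage points. Slc3a2 transcripts per transcript of these 3 light chains were alike in range, at 5.22 ± 1.38 with dopamine and 5.48 ± 2.24 with PBS.

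**Figure D2:**
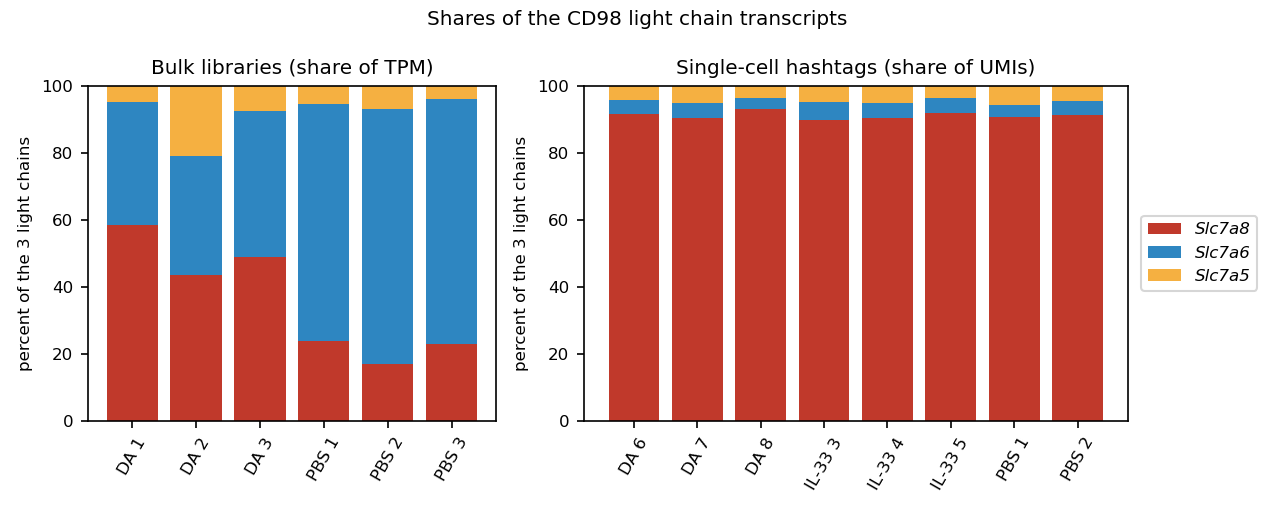
Share of each CD98 light chain in the sum of Slc7a8, Slc7a6 and Slc7a5, in percent, for each bulk library (left, of TPM; DA is IL-33 plus dopamine and PBS is IL-33 plus PBS) and each single-cell hashtag (right, of UMIs). The Slc7a8 share is 43.4% to 58.5% in dopamine libraries and 16.8% to 23.8% in PBS libraries, and 89.8% to 93.2% in every hashtag.

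Among the carriers of glutamine and small neutral amino acids, the 2 sodium-coupled carriers stood apart from the exchanger. Slc38a2 (SNAT2) had 58.2, 84.9 and 63.7 TPM with dopamine, against 28.1, 11.2 and 18.1 TPM with PBS. The lowest dopamine library was above the highest PBS library by more than the PBS range. Slc38a2 averaged 68.9 ± 14.1 TPM with dopamine and 19.2 ± 8.48 TPM with PBS (SD, n = 3 each), with a log2 fold change of 1.86 ± 0.39 (adjusted p = 0.0832, limma), the largest of the 8, or 1.37 relative to the median gene. Slc38a1 (SNAT1) had 193, 192 and 226 TPM with dopamine, against 122, 71.1 and 126 TPM with PBS. The groups did not overlap, and the log2 fold change was 0.97 ± 0.27 (adjusted p = 0.101, limma), or 0.48 relative to the median gene. Without PBS library 1, the adjusted p was 0.0183 for Slc38a2 and 0.0471 for Slc38a1, beside the 11.4% of genes that passed as higher in that fit. With weights that let noisier libraries count less, Slc38a2, Slc7a8 and Slc38a1 passed as well (adjusted p = 0.00749, 0.0156 and 0.0234, limma), as did 21.7% of all genes in that direction.

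The ratio of Slc38a2 to its neighbour Slc38a1 was also higher with dopamine, while Slc38a2 was the lower of the pair in every library. That ratio of TPM was 0.302, 0.442 and 0.282 with dopamine, against 0.231, 0.158 and 0.144 with PBS, without overlap. How many other gene pairs separate in this way was not counted. Slc1a5 (ASCT2) had 67.1, 78.7 and 71.6 TPM with dopamine, against 139, 45.8 and 49.5 TPM with PBS. The dopamine libraries were close together and lay between PBS library 1 and the other two, and the log2 fold change was 0.08 ± 0.41 (adjusted p = 0.910, limma), or -0.41 relative to the median gene. Slc6a13 (GAT2) stood above only 13.1% of the tested genes in bulk, at 2.09, 1.20 and 1.57 TPM with dopamine and 2.77, 2.58 and 3.70 TPM with PBS. All 3 dopamine libraries were below the PBS libraries, and Slc6a13 had a mean TPM 0.537 times that of PBS; the log2 fold change on the log2(TPM + 1) scale, which understates differences of low genes, was -0.62 ± 0.49 (adjusted p = 0.433, limma), or -1.11 relative to the median gene.

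In the single-cell pool, UMIs (unique molecular identifiers, one for each captured molecule) were summed over the cells of a hashtag and scaled to 1000000 in each hashtag (CPM). The hashtag sums ranged from 1397576 to 9268932 UMIs. Over all cells the members had 20062 UMIs for Slc38a1, 16927 for Slc3a2, 15007 for Slc38a2, 8278 for Slc7a8, 3200 for Slc6a13, 2532 for Slc1a5, 401 for Slc7a5 and 393 for Slc7a6. The last pair is therefore known with least precision. T cell markers summed to 1081 to 1121 CPM with IL-33 plus dopamine and 984 to 1215 CPM with IL-33, NK cell and ILC1 markers to 216 to 241 CPM against 202 to 223 CPM, and immediate early and dissociation genes to 11132 to 15593 CPM against 11600 to 12424 CPM. The sums of these 3 lists thus overlapped between the dopamine and IL-33 hashtags, though 3 of 11 T cell markers were lower and 1 higher without overlap. Beside this and the marker counts below, 7.81% of all 10559 tested genes were higher and 6.93% lower without overlap. Of the T cell markers, Cd3e reached at most 8.06 CPM, Cd4 at most 0.343 CPM and Trac at most 11.4 CPM in any hashtag. Other members of that list thus held most of its sum. Other lists did separate these hashtags: lung epithelium markers summed to 111 to 151 CPM with dopamine and 99.8 to 106 CPM with IL-33 (1 of 8 higher without overlap), dendritic cell markers to 14.5 to 16.9 CPM with dopamine and 9.71 to 11.2 CPM with IL-33 (1 of 4 higher), and neutrophil markers to 0.772 to 1.80 CPM with dopamine and 2.40 to 17.4 CPM with IL-33 (2 of 4 lower). Cluster makeup differed too, with 25.3% to 30.4% of cells in the authors' cluster 0 with dopamine and 16.1% to 24.4% with IL-33, and 11.7% to 21.6% in cluster 1 with dopamine and 26.2% to 27.8% with IL-33. The part of these differences in the member values was not tested, beyond the equal cluster weights given below.

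Between IL-33 plus dopamine and IL-33 in single cells, Slc6a13 was the only member with an unadjusted p under 0.05 (edgeR). It lay in the same direction as in bulk. Its level was 58.8, 50.9 and 44.1 CPM in the dopamine hashtags, against 75.0, 75.8 and 83.4 CPM in the IL-33 hashtags. No dopamine hashtag reached the lowest IL-33 hashtag, and the dopamine hashtags also lay below the PBS hashtags, at 68.7 and 66.1 CPM. Slc7a5 and Slc38a2 lay lower with dopamine than with PBS without overlap as well. The share of all genes that separate dopamine from PBS hashtags was not counted. Slc6a13 averaged 51.3 ± 7.36 CPM with dopamine and 78.1 ± 4.61 CPM with IL-33 (SD, n = 3 each), a log2 fold change of -0.61 ± 0.10 with an unadjusted p of 5.2e-05 and an adjusted p of 0.0775 (edgeR quasi-likelihood test). It did not pass in that fit, in which 0 of 10559 genes passed as higher and 3 as lower (0.0284%; 508, or 4.81%, and 492, or 4.66%, at an unadjusted p under 0.05). It did pass with DESeq2 (adjusted p = 0.00213; 15 genes lower, 0.142%), without the filter on low counts (0.04998; 0.0265% lower), among cells between the 10th and 90th percentile of UMIs (0.0473; 0.0587% lower) and without hashtag 6 (0.0464; 0.0374% lower), and the adjusted p reached 0.326 without hashtag 4.

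None of the other 7 members passed in edgeR or had an unadjusted p under 0.05 between these hashtags, and the median log2 fold change of the 8 was 0.06, against 0.00 for all tested genes. Slc38a2 had 312, 317 and 321 CPM with dopamine, against 305, 302 and 294 CPM with IL-33. The groups did not overlap, where 7.81% of tested genes were higher and 6.93% lower without overlap, and the log2 fold change was only 0.08 ± 0.07 (adjusted p = 0.734, edgeR). Slc7a8 had 186, 163 and 195 CPM with dopamine, against 144, 172 and 163 CPM with IL-33, a log2 fold change of 0.19 ± 0.10 (adjusted p = 0.552, edgeR) with overlapping groups. With equal weight for each of the 6 clusters, an alternative added after the data were seen, the value was 0.09 for Slc7a8, 0.09 for Slc38a2 and -0.58 for Slc6a13. Slc38a1 (0.09 ± 0.10), Slc7a5 (0.08 ± 0.18), Slc1a5 (0.03 ± 0.09), Slc3a2 (-0.02 ± 0.11) and Slc7a6 (-0.05 ± 0.16) also overlapped, with adjusted p from 0.812 to 0.959 in edgeR. The SEs leave room for differences of Slc7a5 and Slc7a6 in either direction.

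The light chain proportions of the bulk libraries were not found in the pool. Slc7a8 held 91.6%, 90.4% and 93.2% of light chain UMIs in the dopamine hashtags, against 89.8%, 90.5% and 92.0% in the IL-33 hashtags. The ratio of Slc38a2 to Slc38a1 UMIs was 0.756 ± 0.091 with dopamine and 0.752 ± 0.051 with IL-33 (SD, n = 3 each), also overlapping. UMIs count captured molecules without a correction for transcript length, so these proportions and those of TPM are on different scales.

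**Figure D3:**
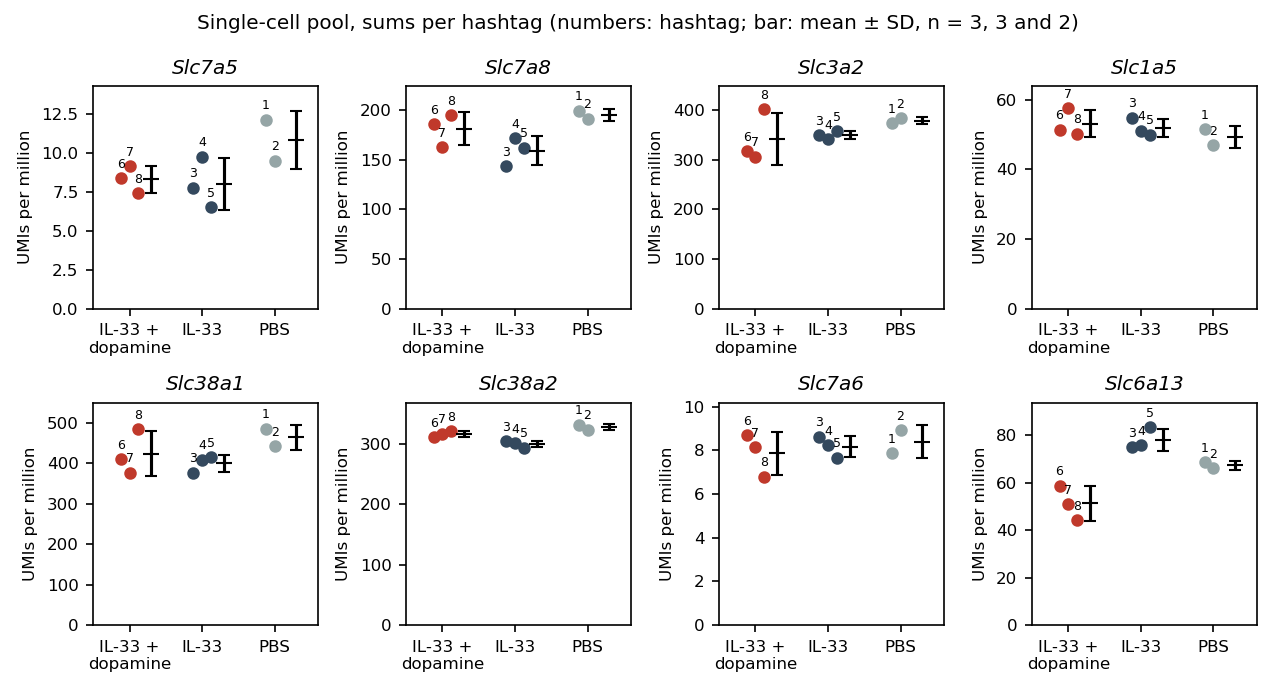
CPM (UMIs scaled to the hashtag total) for the 8 transporters in each hashtag (dots, numbered by hashtag) for IL-33 plus dopamine, IL-33 and PBS, with the mean ± SD beside each group; each axis starts at 0. Slc6a13 is lowest in the 3 dopamine hashtags (44.1 to 58.8), and the 3 IL-33 hashtags (75.0 to 83.4) are above both PBS hashtags.

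IL-33 against PBS asks what the alarmin did on its own, and here the more abundant transporters lay lower with IL-33. Slc7a8 had 144, 172 and 163 CPM with IL-33, against 200 and 191 CPM with PBS. Slc38a1 had 377, 409 and 415 CPM with IL-33, against 485 and 442 CPM with PBS. For both genes the lower PBS hashtag was above the highest IL-33 hashtag. Slc3a2 had 349, 341 and 357 CPM with IL-33, against 374 and 384 CPM with PBS. Slc38a2 had 305, 302 and 294 CPM with IL-33, against 332 and 324 CPM with PBS. These 4 did not overlap, where 13.6% of 10506 tested genes were lower and 20.9% higher without overlap. Their log2 fold changes were -0.33 ± 0.10 for Slc7a8 (adjusted p = 0.136, edgeR), -0.25 ± 0.08 for Slc38a1 (0.179), -0.15 ± 0.07 for Slc3a2 (0.382) and -0.16 ± 0.08 for Slc38a2 (0.363). None of the 8 members passed in edgeR, or in DESeq2, which gave no adjusted p for Slc7a5 and Slc7a6. Slc7a8, Slc38a1 and Slc38a2 had an unadjusted p under 0.05 in edgeR and 37 genes passed in each direction (0.352% each; 6.56% were higher and 6.87% lower at an unadjusted p under 0.05).

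Slc6a13 lay on the other side, with every IL-33 hashtag above both PBS hashtags and a log2 fold change of 0.18 ± 0.11 (adjusted p = 0.508, edgeR). The dopamine and the IL-33 comparison share the IL-33 hashtags, so their opposite signs are not independent of each other. Slc7a5 (-0.43 ± 0.26), Slc1a5 (0.06 ± 0.12) and Slc7a6 (-0.10 ± 0.24) overlapped between the groups. Among cells between the 10th and 90th percentile of UMIs the value of Slc6a13 was 0.03 (adjusted p = 0.964, edgeR). The makeup of the hashtags moved with this comparison: the authors' cluster 5 held 22.0%, 8.88% and 11.7% of the cells of the IL-33 hashtags, against 2.57% and 3.07% of the PBS hashtags, and cluster 0 held 16.1% to 24.4% against 32.1% to 32.5%. With equal cluster weights, the log2 fold change of IL-33 over PBS was nearer 0 for Slc7a8 (-0.14), Slc38a1 (-0.05) and Slc3a2 (-0.02). It was close to the first value for Slc38a2 (-0.16), and was 0.23 for Slc6a13 and 0.11 for Slc1a5. For the scarce Slc7a5 (0.08) and Slc7a6 (0.18) it was on the other side of 0. Equal weights let the 31 PBS cells of cluster 5 count as much as larger clusters. PBS hashtag 1 held 0 UMIs of Slc7a5 in clusters 1 and 5 and 0 of Slc7a6 in cluster 5. Marker lists moved with IL-33 against PBS as well. ILC2 markers overlapped in sum, at 7144 to 7645 CPM with IL-33 and 7235 to 8269 CPM with PBS. Of the 11, 5 were lower and 2 higher without overlap. Beside this and the marker counts below, 13.6% of all 10506 tested genes were lower and 20.9% higher without overlap. NK cell and ILC1 markers summed to 202 to 223 CPM with IL-33 and 244 to 252 CPM with PBS (4 of 10 lower and 1 higher without overlap), lung epithelium markers to 99.8 to 106 CPM with IL-33 and 120 to 137 CPM with PBS (3 of 8 lower), neutrophil markers to 2.40 to 17.4 CPM with IL-33 and 0 to 1.43 CPM with PBS (2 of 4 higher), and immediate early and dissociation genes to 11600 to 12424 CPM with IL-33 and 13552 to 15269 CPM with PBS (8 of 19 lower and 3 higher). Their part in the member values was not tested.

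**Figure D4:**
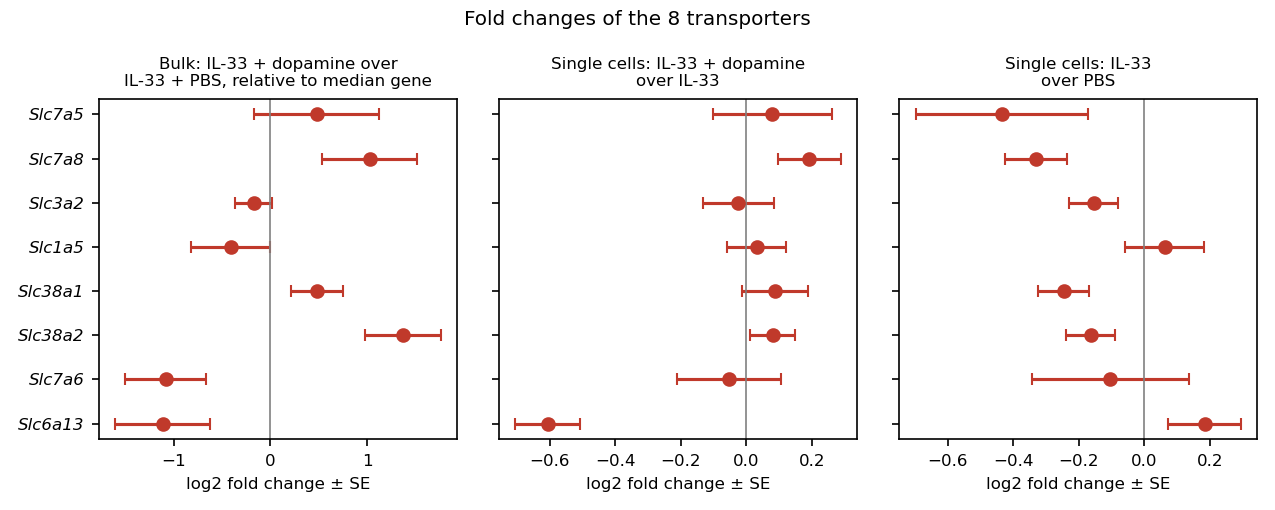
Log2 fold changes ± SE of the 8 transporters in bulk (IL-33 plus dopamine over IL-33 plus PBS, relative to the median tested gene) and in single cells (IL-33 plus dopamine over IL-33, and IL-33 over PBS). Slc6a13 is negative in both dopamine panels (-1.11 and -0.61), and the bulk values of Slc7a8 and Slc38a2 (1.03 and 1.37) have no like-sized value in the single-cell dopamine panel (0.19 and 0.08).

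The authors grouped the 9076 cells into 6 numbered clusters without deposited names, so they are described by their leading genes. Cluster 0 (2289 cells) led with Fam122a and Gimap3, cluster 1 (1934) with Cd3g and S100a6, cluster 2 (1671) with Maff and Atf3, cluster 3 (1198) with Il5 and Tnfrsf9, cluster 4 (1071) with the heat shock genes Hspa1a and Hspa1b, and cluster 5 (913) with Cd83 and Pcsk1. The clusters were made from the expression of these same cells, so levels between clusters are a description. Median UMIs per cell ran from 4082 in cluster 0 to 8142 in cluster 5. After each cell was thinned to 3000 UMIs, which left 8647 cells, each of the 48 levels of a member in a cluster moved by less than the SD between hashtags.

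Slc38a1 had the clearest order. It was highest in cluster 2 in 8 of 8 hashtags, at a mean of 604 ± 18.4 CPM (SD over 8 hashtags), and lowest in cluster 1 in 7 of 8, at 282 ± 42.6 CPM. The clusters between, 3, 0, 4 and 5, had means of 433, 421, 417 and 379 CPM, with overlapping spreads (SDs of 35.2 to 79.3 CPM). Slc38a2 was highest in cluster 2 in 5 of 8 hashtags (372 ± 33.4 CPM), with clusters 4, 5 and 0 within the spreads (349 ± 29.8, 337 ± 113 and 334 ± 11.9 CPM) and cluster 4 or 5 highest in the other 3 hashtags, and was lowest in cluster 3 (257 ± 38.8 CPM) or cluster 1 (279 ± 39.3 CPM) in 4 hashtags each. Cluster 2, whose leading gene Atf3 encodes a stress-induced bZIP factor, thus had the highest mean of both glutamine carriers, beyond the spread between hashtags for Slc38a1 and not for Slc38a2.

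Of the CD98 subunits, Slc3a2 was highest in cluster 0 in 6 of 8 hashtags (396 ± 46.3 CPM) and Slc7a8 highest in cluster 4 in 5 of 8 (213 ± 23.8 CPM), with clusters 2 and 0 within that spread (202 ± 25.3 and 201 ± 19.6 CPM). Both were low in clusters 1 and 5, at 310 ± 37.7 and 309 ± 39.3 CPM for Slc3a2 and 136 ± 15.5 and 136 ± 38.7 CPM for Slc7a8. Slc7a5 was scarce everywhere but uneven, at 12.9 ± 3.92 CPM in cluster 2, 14.6 ± 6.66 CPM in cluster 3 and 13.2 ± 11.9 CPM in cluster 5, against 4.61 ± 1.95, 4.68 ± 2.88 and 5.31 ± 3.20 CPM in clusters 0, 1 and 4. Cluster 3, with Il5 and Il13 among its leading genes, was thus among the clusters where Slc7a5 was highest. Its mean of Slc7a8, the other leucine carrier, was 169 ± 14.5 CPM, below the means of clusters 0, 2 and 4. Slc7a6 (7.15 to 10.2 CPM) and Slc1a5 (46.7 to 57.7 CPM) had no cluster that was highest in more than 3 of 8 hashtags.

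Slc6a13 was lowest in cluster 3 in 7 of 8 hashtags, at 38.7 ± 15.1 CPM, followed by cluster 2 at 51.9 ± 12.3 CPM. It stood at 69.8 to 82.5 CPM in the other 4 clusters, whose spreads overlapped (SDs of 11.8 to 28.7 CPM). The lower level with dopamine was seen in each cluster. In cluster 3 it was 18.3, 34.7 and 27.5 CPM in dopamine hashtags 6, 7 and 8, against 49.0, 61.1 and 56.1 CPM in IL-33 hashtags 3, 4 and 5. In cluster 5 it was 74.2, 46.4 and 29.9 CPM with dopamine, the last from 4 UMIs, against 80.5, 81.8 and 103.5 CPM with IL-33. The groups did not overlap in clusters 0, 1, 3, 4 and 5 and overlapped by a single hashtag in cluster 2, where 4.52%, 5%, 4.9%, 4.84%, 5.22% and 6.2% of the genes tested in clusters 0 to 5 were lower without overlap.

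The log2 fold changes of Slc6a13 within clusters were -0.41 ± 0.15, -0.39 ± 0.14, -0.48 ± 0.18, -1.01 ± 0.22, -0.39 ± 0.15 and -0.73 ± 0.20 in clusters 0 to 5. None passed (adjusted p from 0.167 in cluster 5 to 0.778 in cluster 1, edgeR), and the difference between clusters was not tested. The sign was the same in all 36 fits that left out 1 hashtag. Where the groups did not overlap, leaving 1 out could hardly turn it. The clusters share the same hashtags, so these fits are not independent of each other. Few genes passed within any cluster: 3 higher in cluster 0 (0.0388%), 3 in each direction in cluster 1 (0.0375% each), 0 in clusters 2 and 3 (edgeR; 201 higher and 216 lower in cluster 2 and 162 higher and 188 lower in cluster 3 at an unadjusted p under 0.05), 2 in each direction in cluster 4 (0.0274% each), and 11 higher (0.154%) and 8 lower (0.112%) in cluster 5.

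Of the other members, Slc3a2 and Slc1a5 each separated the dopamine from the IL-33 hashtags in 1 cluster and Slc7a8 in 3. Slc3a2 was lower in cluster 2, at 344, 353 and 378 CPM with dopamine (low to high), against 382, 414 and 417 CPM with IL-33. Slc1a5 was higher in cluster 1, at 60.4, 63.01 and 73.9 CPM with dopamine, against 50.05, 53.3 and 59.9 CPM with IL-33. Slc7a8 was higher in clusters 0 and 2, where all 3 dopamine hashtags lay at 203 CPM or more, and lower in cluster 4. Without overlap, 7.17%, 5.96% and 6.15% of the genes tested in clusters 0, 1 and 2 were higher, so separations of this kind were common. Slc38a1 overlapped between the treatments in every cluster, as did Slc38a2.

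**Figure D5:**
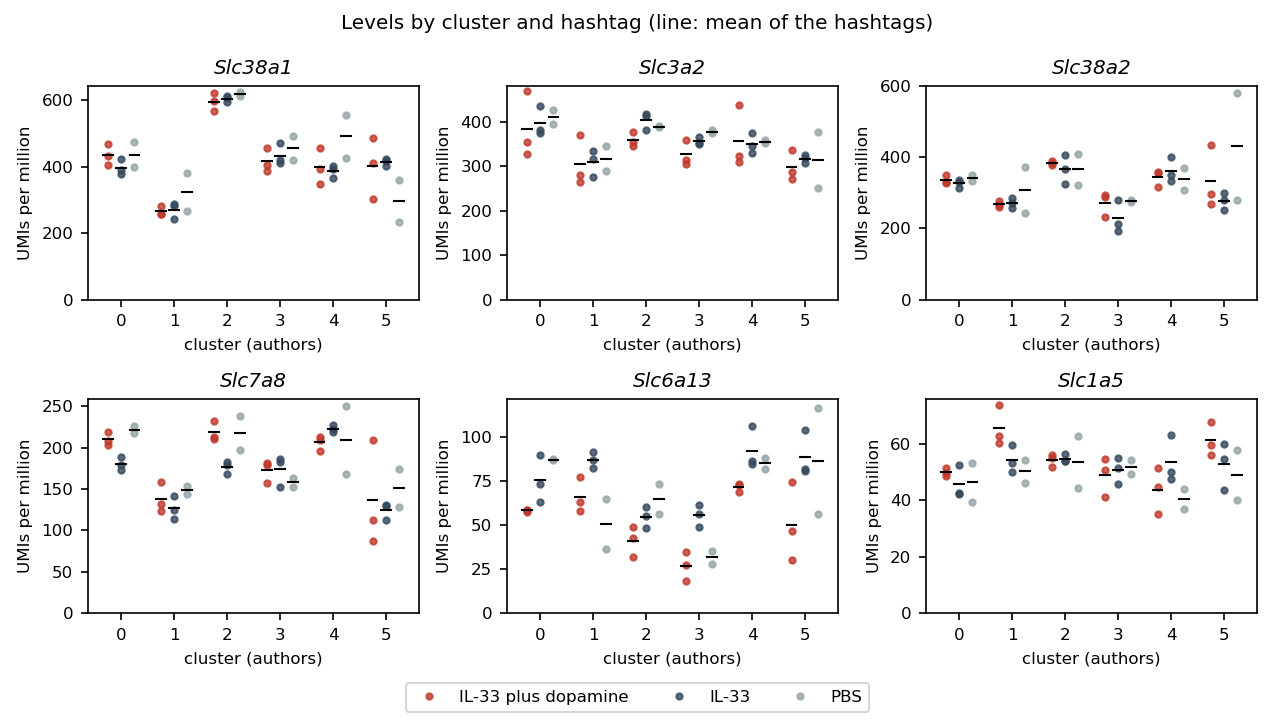
CPM of 6 transporters in each of the authors' clusters (x axis), with a dot for each hashtag of IL-33 plus dopamine, IL-33 and PBS and a line at the mean of each treatment. Slc38a1 is highest in cluster 2 in all 8 hashtags. The mean of Slc6a13 with dopamine lies below that with IL-33 in every cluster, and the hashtags overlap in cluster 2.

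The bulk and the single-cell assay placed some members at very different ranks. Among the 14956 genes in both tables, Slc7a6 stood above 88.2% of genes by mean TPM and above 50.8% by mean CPM, and Slc6a13 above 38.1% by TPM and 87.0% by CPM. Slc3a2 (98.3% and 97.8%), Slc38a1 (95.3% and 98.1%) and Slc7a5 (58.9% and 52.2%) stood at close ranks. Slc7a6 was thus an abundant transcript in bulk and a scarce one in the pool, and Slc6a13 the reverse; the cause was not tested.

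A further 155 genes of the amino acid network, in 8 lists drawn up with earlier results known, set the transporters in context. In bulk, 109 of them were tested and 0 passed in limma, with 10 higher and 10 lower at an unadjusted p under 0.05, where 19.5% of all tested genes were higher and 4.62% lower by that rule. The genes named here are those with the lowest p of each list. Slc7a3, a carrier of cationic amino acids in the list of other SLC7 and SLC43 carriers, was at 0, 1.41 and 0 TPM with dopamine, against 8.02, 4.88 and 5.55 TPM with PBS (adjusted p = 0.0832, limma). Slc1a4, a carrier of alanine, serine and cysteine among the other SLC38, SLC36 and SLC1 carriers, was at 1.12, 0 and 0 TPM with dopamine, against 9.80, 2.17 and 1.84 TPM with PBS (adjusted p = 0.141, limma). Both were thus listed at or near 0 in each dopamine library, and Slc1a4 was also low in PBS libraries 2 and 3. Of the 6 genes tested in the list of Slc7a3, 0 were higher and 2 lower at an unadjusted p under 0.05. Of the 7 tested in that of Slc1a4, 0 were higher and 1 lower. Slc6a6, the taurine carrier, was the one tested gene of the other SLC6 carriers and had a log2 fold change of -0.48 ± 0.31 (adjusted p = 0.355, limma), or -0.97 relative to the median gene.

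In the list of ATF4 response genes the median log2 fold change in bulk was -0.49 over 16 tested genes, against 0.49 for all tested genes. Of the 16, 2 were higher and 2 lower at an unadjusted p under 0.05 (19.5% and 4.62% of all tested genes). The ATF4 target Slc38a2 was at 1.86, and a part of ATF4 in any of these values was not tested. The ATF4 response gene Phgdh, which encodes the entry enzyme of serine synthesis, was at 65.7, 40.1 and 61.8 TPM with dopamine, against 197, 147 and 93.6 TPM with PBS (adjusted p = 0.0941, limma). Pycr1, an enzyme of proline synthesis and the lowest p among 21 genes of amino acid breakdown and synthesis, was at 0, 0.44 and 0.98 TPM with dopamine, against 4.98, 2.38 and 2.52 TPM with PBS (adjusted p = 0.134, limma). The groups of both enzymes did not overlap. The prolyl and glutamyl tRNA synthetase gene Eprs was at 69.9, 68.3 and 81.6 TPM with dopamine, against 49.6, 23.9 and 19.7 TPM with PBS (adjusted p = 0.103, limma). Lamtor5, a subunit of the Ragulator complex that holds mTORC1 at the lysosome, had a log2 fold change of -1.07 ± 0.31 (adjusted p = 0.106, limma), and Mxd1, a MAX partner that opposes MYC, of 1.74 ± 0.47 (adjusted p = 0.0994, limma).

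In the single-cell dopamine comparison 103 of the 155 genes were tested, and 0 passed in edgeR (5 higher and 9 lower at an unadjusted p under 0.05, where 4.81% of all tested genes were higher and 4.66% lower) and 0 in DESeq2 (0.114% of all tested genes higher and 0.142% lower). Slc43a2 (LAT4), a uniporter of branched-chain amino acids and phenylalanine, had 33.03, 30.6 and 27.0 CPM with dopamine, against 41.5, 41.01 and 36.9 CPM with IL-33. Its groups did not overlap, and the log2 fold change was -0.40 ± 0.10 (adjusted p = 0.267, edgeR). The lowest p of the other lists belonged to Lamtor5 (-0.32 ± 0.10, adjusted p = 0.397, edgeR), Psat1 of serine synthesis (-0.53 ± 0.17, 0.411), the glutamine synthetase gene Glul (-0.25 ± 0.08, 0.415), the arginyl tRNA synthetase gene Rars (-0.30 ± 0.11, 0.469), Mycn (0.56 ± 0.15, 0.331), Slc38a7 (-0.44 ± 0.25, 0.580) and the creatine carrier Slc6a8 (0.21 ± 0.35, 0.875). Lamtor5 was on the lower side in bulk as well, and it passed in neither comparison.

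With IL-33 against PBS, 104 were tested, 0 rose and 3 fell in edgeR (0.352% of all tested genes in each direction), and DESeq2 passed 1 higher and 4 lower (0.362% and 0.771%). Of 13 tested ATF4 response genes 2 fell: Cebpb (-0.66 ± 0.09, adjusted p = 0.0062, edgeR), a bZIP factor of acute and stress responses, and Atf3 (-0.84 ± 0.14, adjusted p = 0.0119, edgeR). Of 20 tRNA synthetases 1 fell, Eprs, at 442, 452 and 540 CPM with IL-33, against 760 and 616 CPM with PBS (-0.56 ± 0.10, adjusted p = 0.0213, edgeR). All 3 calls were lost in a fit of all 8 hashtags, in which 0 genes passed in edgeR (637 higher and 627 lower at an unadjusted p under 0.05; adjusted p = 0.230 for Cebpb, 0.154 for Atf3 and 0.253 for Eprs), and without PBS hashtag 1 (adjusted p = 0.0897, 0.254 and 0.351, edgeR). The call of Eprs was also lost without IL-33 hashtag 3 (adjusted p = 0.0675, edgeR). The sums of immediate early and dissociation genes, of which Atf3 is a known member, were lower with IL-33 too, and their part in these calls was not tested. Of 31 genes of mTORC1 and amino acid sensing 0 passed in edgeR. At an unadjusted p under 0.05, 4 were higher and 3 lower, where 6.56% of all tested genes were higher and 6.87% lower. Sesn3, a sestrin that restrains mTORC1, had the lowest p of that list (0.54 ± 0.13, adjusted p = 0.0677, edgeR). Mxd1 (-0.45 ± 0.10, adjusted p = 0.0539, edgeR) led the MYC list, and Slc36a1 (0.92 ± 0.35, 0.263), Glud1 (0.28 ± 0.10, 0.233), Slc7a1 (0.20 ± 0.14, 0.596) and Slc6a8 (-0.33 ± 0.55, 0.854) led the others. The genes that passed in DESeq2 were Sesn3 and Mxd1 besides Eprs, Atf3 and Cebpb.

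Across the 18 sums of 3 treatments in 6 clusters, the genes most alike to each member with at least 500 UMIs were ranked by Pearson's r of log2(CPM + 1) among 6758 genes. The sums share a pool and the clusters were made from the same cells, so r is a description with no test. Slc38a1 was most like Nfkbiz, a nuclear protein of the IkB family (r = 0.92), and Slc38a2 was most like the splicing factor gene Srsf3 (0.90) and the splicing kinase gene Clk1 (0.84). Slc7a8 was most like Lpcat2, an enzyme of phospholipid remodelling (0.94), and Mdfic (0.91), and Slc6a13 most like 4931406C07Rik (0.89) and Pgrmc2 (0.87). Slc3a2 was most like Gm43445 (0.87), and Slc1a5 had the weakest likeness, to Psmd1, a proteasome subunit gene (0.74). Slc7a5 and Slc7a6 had too few UMIs for this ranking.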

How the data were processed

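The submitters' processing notes name cutadapt 2.10, STAR 2.7.5c, RSEM 1.3.3, Cell Ranger 6.1.1, Seurat 4.0.2 and mm10; their roles and settings are not given in the sources used here. The deposited bulk values are TPM; the deposited single-cell values are whole-number UMI counts of 9076 cells kept by the authors, with hashtag, treatment and cluster per cell. The percent of mitochondrial UMIs per cell, a column the authors deposited, was not used. What was done about doublets is not stated in these sources, no caller was run, and no barcode occurred more than once. Promoters were read from RefSeq (GRCm38.p6).

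Bulk genes at 1 TPM or more in at least 3 libraries entered limma 3.58.1 as log2(TPM + 1), and hashtag sums (CPM for display) entered edgeR 4.0.16 (TMM, filterByExpr, quasi-likelihood) over all genes, in R 4.3.3, passing at an adjusted p under 0.05; both were tested on simulated data. DESeq2 1.42.0, other pseudocounts, filters, scalings and left-out samples were alternatives. Same-numbered bulk libraries did not deviate together (correlations 0.0186, -0.0710 and -0.00177), so the fit has no replicate block, which was an alternative. A fit with a hashtag left out took its own filter. Members, lists and tests were chosen with earlier results of these data known. Named genes are the 8 members, up to 4 passing genes of each network list or else its lowest p, and the 3 genes most alike to a member with at least 500 UMIs, of which the first or first few are printed.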

Additional observations from a re-analysis of the deposited data

Results flagged for a closer look

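Slc7a8 (LAT2) differed in direction between the authors' clusters when IL-33 plus dopamine was set against IL-33. In cluster 0 all dopamine hashtags (203 to 218 CPM) were above all IL-33 hashtags (173 to 188 CPM), with a log2 fold change of 0.20 ± 0.10. In cluster 2 they were also above, at 210 to 232 CPM with dopamine and 168 to 183 CPM with IL-33 (0.29 ± 0.10). In cluster 4, led by heat shock genes, they were below, at 196 to 213 CPM with dopamine and 219 to 227 CPM with IL-33 (-0.14 ± 0.11). The shares of all tested genes without overlap were 7.17% and 6.15% higher in clusters 0 and 2 and 5.22% lower in cluster 4. None of the 3 passed edgeR's test over all genes of the cluster (adjusted p from 0.657 to 0.879), and the difference between clusters was not tested.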

How the results depend on the processing

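The number of genes that passed depended on the setting. In bulk it was 4, and 2 with a pseudocount of 5, 0 without a filter, 21 with quantile normalization, 15 with the replicate block, 2800 with array weights and 0 to 1383 with a library left out. The block changed no member's call (Slc38a2 adjusted p = 0.0937). In the single-cell dopamine comparison the number was 3, and 27 with DESeq2, 9 among cells between the 10th and 90th UMI percentile and 1 to 16 with a hashtag left out. For IL-33 against PBS it was 74, and 119 with DESeq2, 322 without a filter, 0 in a fit of all 8 hashtags, 34 in the percentile range and 5 to 124 with a hashtag left out. With a hashtag left out it was 0 to 10, 1 to 24, 0 to 8, 0 to 7, 3 to 17 and 1 to 50 in clusters 0 to 5. Causes were not tested.

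Some members turned in sign, most of them near 0. The relative bulk value of Slc3a2 was 0.0266 with a pseudocount of 5, 0.0568 without a filter and 0.30 with quantile normalization, and that of Slc7a5 ran from -0.0796 to 1.02 with a library left out. In the single-cell dopamine comparison Slc1a5 was -0.0744 in the percentile range, and with a hashtag left out Slc1a5 ran from -0.0272 to 0.0763, Slc7a6 from -0.107 to 0.0192, Slc7a5 from -0.0502 to 0.221, Slc38a1 from -0.0482 to 0.171 and Slc3a2 from -0.187 to 0.0546. For IL-33 against PBS Slc7a6 was 0.13 in the percentile range and ran from -0.155 to 0.0207, and Slc1a5 from -0.0200 to 0.117. At equal cluster weight Slc7a5 turned in sign, at -0.0316 with dopamine and 0.0843 with IL-33 (against -0.43). So did Slc38a1 with dopamine (-0.00189) and Slc7a6 with IL-33 (0.185), and Slc7a8 with dopamine was 0.0931. PBS hashtag 1 held 0 UMIs of Slc7a5 in clusters 1 and 5 and 0 of Slc7a6 in cluster 5. Slc6a13 with IL-33 was 0.0259 in the percentile range, against 0.18. Slc6a13 kept its sign in both dopamine comparisons under every setting. It ran from -1.47 to -0.57 relative to the median gene in bulk, and from -0.69 to -0.53 as a plain log2 fold change in single cells. Its groups did not overlap in either comparison, so a fit with 1 sample left out could hardly turn that sign. The few UMIs of Slc7a5 and Slc7a6 and the unknown depth of the TPM limit those values.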
